A study of Mus musculus with 4 samples.

Results

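The genes described here are 37 antioxidant, thiol and iron-storage defence genes, measured in cultured tail-skin melanocytes of AhR knockout and wild-type mice. AhR is the aryl hydrocarbon receptor, a transcription factor that dioxins and other small molecules switch on. The members were taken by symbol, and where a gene had several probe sets the brightest on average was used. Of the 37, 32 had a probe set annotated to that symbol alone, out of 12393 genes so named on the array. Prdx1 and Ftl1 were covered by 5 and 3 probe sets that carry further symbols and are therefore not named, and no probe set carried the symbols Prdx5, Prdx6 or G6pdx. Sod3, the extracellular superoxide dismutase, lay below the signal filter, at 26.5 and 8.40 in AhR knockout 1 and 2 against 5.02 and 16.8 in wild type 1 and 2. That left 31 members among 7436 tested genes.

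The cells came from female AhR knockout mice (strain AhRtm1Bra, an allele that lacks exon 2 of the receptor gene) and from female wild-type C57BL/6 mice, with 2 arrays of each genotype. Epidermal cells of either genotype spent 6 to 8 weeks in a melanocyte medium without serum, and they received no AhR ligand or oxidant that the labels name. The knockout is present in every cell of the animal, so the melanocytes and any other cell in the dish carry it alike. No label gives ages or passage numbers or says whether the arrays of a genotype came from separate mice, so p-values measure only the spread between these samples, which may be technical.

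Cells meet oxidants with linked systems. The factor NRF2 (Nfe2l2) is held in the cytoplasm and degraded through KEAP1 (Keap1) until oxidants or electrophiles modify KEAP1, and it then binds antioxidant response elements and induces genes for glutathione and thioredoxin, for quinone and heme breakdown and for NADPH. Peroxiredoxins, catalase, glutathione peroxidases and superoxide dismutases remove the oxidants themselves, while ferritin and metallothioneins hold iron, zinc and copper. Melanin synthesis produces quinones and hydrogen peroxide, so pigment cells rely on these systems, and AhR and NRF2 are known to share targets such as Nqo1.

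Values are the deposited signal intensities, which are linear and scaled to a common level on every array. Differences are AhR knockout minus wild type on log2(signal + 16) with the SE from limma, and a gene counts as changed when its p, adjusted over all 7436 tested genes by the Benjamini-Hochberg method, is under 0.05. With 2 arrays in each group an exact permutation cannot give a two-sided p below 0.333, so the p-values rest on limma, which borrows the spread across genes. The median signal lay between 89.5 and 98.4 on all arrays. The targeted gene, Ahr, read 241 and 843 in AhR knockout 1 and 2 against 825 and 874 in wild type, and whether its probes cover the deleted exon was not examined. Its target Cyp1b1 read 14.0 and 23.1 in the knockout arrays against 1216 and 1410 in wild type. AhR knockout 2 stood apart in the array's own controls. Its ratio of 3' to 5' Gapdh signal was 11.9, against 1.98 in AhR knockout 1 and 2.13 and 2.85 in wild type. That of actin was 28.0, against at most 8.71 on the others. Added poly-A control RNAs read a median of 2.56 times their wild-type mean on AhR knockout 2. That value was 1.17 on AhR knockout 1, 0.856 on wild type 1 and 1.14 on wild type 2. The melanocyte markers Dct, Tyr, Tyrp1 and Pmel were bright on every array. Of the 10 measured markers 8 were higher and 2 lower, none past the threshold, the lower ones being Kit, at 558 and 273 in knockout against 1235 and 900 in wild type, and Mitf, at 1668 and 2462 against 2771 and 2644. The 10 summed to 85786 and 110253 in knockout and 73634 and 56984 in wild type.

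None of the 31 tested members rose or fell in limma, against 0.955% of all tested genes (0.202% rose, 0.753% fell). An unadjusted p under 0.05 was found for 3 members, Selenbp1 and Mt1 higher and Txnrd1 lower, which is 9.68% of the members and compares with 20.6% of all tested genes, 7.68% higher and 12.9% lower. The knockout and wild-type arrays did not overlap for 16 members, 11 higher and 5 lower, or 51.6%, close to the 55.4% of all tested genes, 28.7% higher and 26.7% lower. In all, 17 members lay higher and 14 lay lower; their log2 differences had a median of 0.21, beside 0.0055 for all tested genes. By role, 5 of 5 genes of glutathione supply were lower, as were 3 of 4 for quinones and heme and 3 of 5 of the thioredoxin system. Of the peroxiredoxins 3 of 3 were higher, of the metallothioneins 2 of 2 and of the superoxide and peroxide enzymes 5 of 6. NRF2 control and NADPH supply each had 1 higher and 1 lower, and Fth1 and Selenbp1 were higher. The role groups were read after earlier results of these data were known and had no test of their own.

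**Figure D1:**
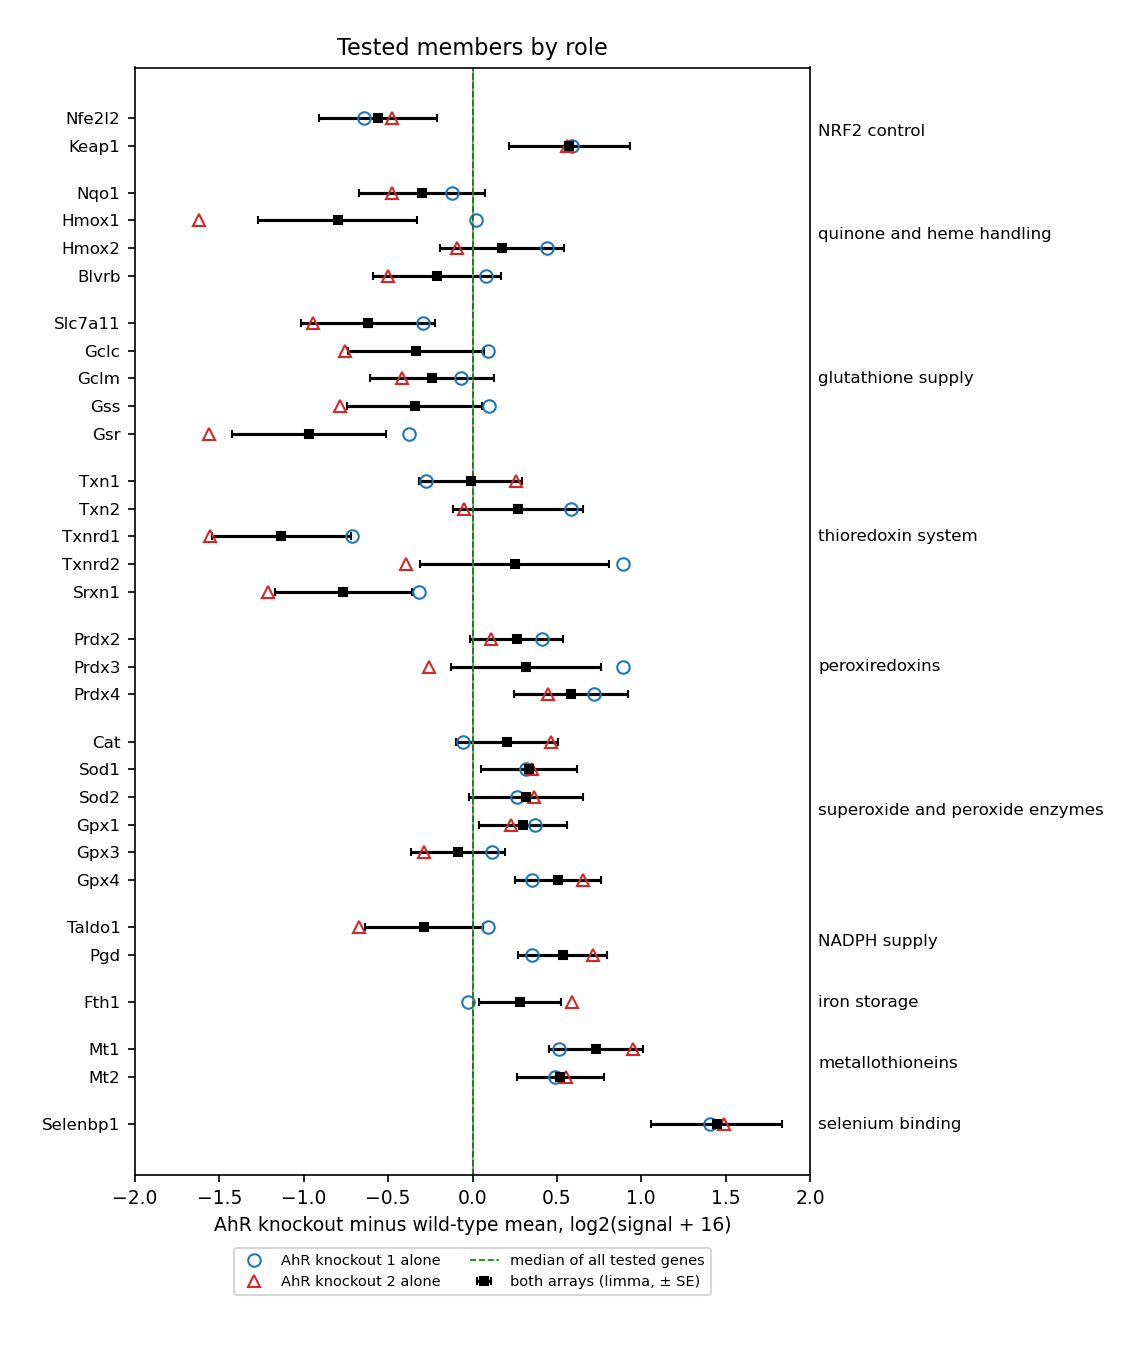
Log2 difference, AhR knockout minus wild-type mean, of the 31 tested members grouped by role: black squares are the limma estimate with its SE, blue circles AhR knockout 1 alone and red triangles AhR knockout 2 alone, and the dashed green line is the median of all tested genes. Selenbp1, Mt1 and Mt2 lie to the right in both knockout arrays and Txnrd1, Gsr, Srxn1 and Slc7a11 to the left in both, whereas for Hmox1 the arrays differ, at 0.023 and -1.62.

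Promoter sequences of the members with the smallest p, and of Mt2, the neighbour of Mt1, are shown because AhR, NRF2 and the metal sensor MTF1 each have a known DNA element that can be looked for there. Each run is the 250 bases before an annotated transcription start in RefSeq GRCm38.p6, and capitals mark matches on either strand to TGACNNNGC (antioxidant response element), GCGTG (core of the xenobiotic response element that AhR binds) or TGCACNC and TGCGCNC (metal response element):
Selenbp1 (chr3:94932833-94933082, + strand): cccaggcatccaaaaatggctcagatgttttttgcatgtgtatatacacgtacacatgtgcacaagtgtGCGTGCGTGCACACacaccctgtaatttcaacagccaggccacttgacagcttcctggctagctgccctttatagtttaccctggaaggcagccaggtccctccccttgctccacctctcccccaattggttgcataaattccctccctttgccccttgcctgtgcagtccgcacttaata
Mt1 (chr8:94178839-94179088, + strand): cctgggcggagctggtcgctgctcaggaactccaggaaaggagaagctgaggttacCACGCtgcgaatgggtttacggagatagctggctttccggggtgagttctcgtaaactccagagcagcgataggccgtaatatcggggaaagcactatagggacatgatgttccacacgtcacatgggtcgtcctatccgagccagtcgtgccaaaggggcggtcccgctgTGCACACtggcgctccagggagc
Mt2 (chr8:94172368-94172617, + strand): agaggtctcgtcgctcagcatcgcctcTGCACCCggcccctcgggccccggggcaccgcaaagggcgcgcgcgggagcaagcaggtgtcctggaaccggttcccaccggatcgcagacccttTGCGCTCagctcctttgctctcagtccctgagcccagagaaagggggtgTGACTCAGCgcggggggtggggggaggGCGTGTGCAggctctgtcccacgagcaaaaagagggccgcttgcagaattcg
Txnrd1 (chr10:82858956-82859205, + strand): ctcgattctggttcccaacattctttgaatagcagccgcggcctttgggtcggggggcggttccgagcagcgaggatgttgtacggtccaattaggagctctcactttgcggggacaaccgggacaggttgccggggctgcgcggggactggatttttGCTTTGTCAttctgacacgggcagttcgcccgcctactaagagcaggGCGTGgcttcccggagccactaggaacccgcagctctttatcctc

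Txnrd1 has 3 annotated windows, and the one with an antioxidant element is printed; that element lies 92 to 84 bases before the start, on the reverse strand. Mt2 also has one, 79 to 71 bases before the start, and 3 metal elements, of which the one nearest the start overlaps a GCGTG. The printed window of Mt1 holds 1 metal element, 23 to 17 bases before the annotated start, and 1 GCGTG. Bases after the annotated start were not searched for any gene. Selenbp1 has 2 GCGTG matches that share a base, and 2 metal element matches. All lie in a single stretch, 181 to 168 bases before the start. Promoter windows were at hand for 32 of the 37 members, 42 windows in all. The antioxidant element was found in 16.7% of these and in 10.2% of all 32851 windows, GCGTG in 61.9% and 28.2%, and the metal element in 21.4% and 21.4%. The windows were not matched for base composition. A match of letters is a description and not a bound site.

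Selenbp1, a selenium-binding protein that oxidises methanethiol, had the smallest p of the members. Its signal was 734 and 778 in AhR knockout 1 and 2, against 347 and 204 in wild type 1 and 2. Both knockout arrays lay above both wild-type arrays. The log2 difference was 1.45 ± 0.39, or 2.73-fold, with adjusted p = 0.096 in limma, short of the threshold. With AhR knockout 1 left out the adjusted p was 0.0063 and with AhR knockout 2 left out 0.013, while without wild type 1 it was 0.12 and without wild type 2 0.98. The array's other probe set under this symbol read 420 and 448 in knockout and 229 and 142 in wild type, a log2 difference of 1.19. That probe set carries an accession that RefSeq assigns to Selenbp2, a closely related gene, so the 2 genes cannot be told apart by it.

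Metallothioneins, small cysteine-rich proteins that bind zinc and copper and scavenge radicals, were higher in the knockout cells without passing the test. Mt1 read 19065 and 25916 in AhR knockout 1 and 2, against 16595 and 10774 in wild type 1 and 2. The groups did not overlap, and the log2 difference was 0.73 ± 0.28 with adjusted p = 0.19. Mt2 read 14321 and 14978 in knockout, against 11827 and 8817 in wild type, again without overlap. Its log2 difference was 0.52 ± 0.26 with adjusted p = 0.29. Both sizes depended on scaling, since quantile normalization gave 0.40 for Mt1 and 0.21 for Mt2. For Mt1, AhR knockout 1 alone gave 0.51. AhR knockout 2 alone, the array with the highest 3' to 5' ratios, gave 0.95. The neighbouring genes are similar in sequence, and cross-binding between their probe sets was not checked.

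The switch itself, NRF2 and its inhibitor, moved in opposite directions by similar amounts, and neither passed. Nfe2l2 read 1644 and 1841 in AhR knockout 1 and 2, against 2167 and 3051 in wild type 1 and 2, a log2 difference of -0.56 ± 0.35 (adjusted p = 0.39). Keap1 read 812 and 796 in knockout, against 587 and 487 in wild type, a log2 difference of 0.57 ± 0.36 with adjusted p = 0.38. For both genes the groups did not overlap and the knockout arrays lay close to each other. These are transcript levels, and NRF2 is controlled largely by degradation of its protein, which the arrays do not measure.

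Glutathione supply was lower in all 5 tested members, with a median log2 difference of -0.34, and none passed. Gsr, glutathione reductase, which returns oxidised glutathione to its reduced form, read 839 and 359 in AhR knockout 1 and 2, against 926 and 1289 in wild type 1 and 2. The groups did not overlap, with AhR knockout 2 the lower of the knockout arrays, and the log2 difference was -0.97 ± 0.46 with adjusted p = 0.26. A second Gsr probe set read 239 and 18.7 in knockout and 243 and 253 in wild type, so only AhR knockout 2 stood apart there. Slc7a11, the cystine importer that feeds glutathione synthesis, read 343 and 213 in knockout, against 354 and 509 in wild type. Its groups did not overlap, though AhR knockout 1 and wild type 1 were near each other, and the log2 difference was -0.62 ± 0.40 with adjusted p = 0.39. Gclc and Gclm, the catalytic and modifier subunits of the enzyme that begins glutathione synthesis, differed by log2 -0.33 and -0.24, and Gss, which completes it, by -0.34. These 3 overlapped between groups. Taken array by array, the 5 genes had a median difference of -0.067 for AhR knockout 1 and -0.78 for AhR knockout 2, and AhR knockout 2 was the lower of the knockout arrays for all 5.

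Of the 5 genes of the thioredoxin system 3 were lower and 2 higher, and none passed. Txnrd1, the cytosolic thioredoxin reductase and a known NRF2 target, read 1662 and 920 in AhR knockout 1 and 2, against 2181 and 3418 in wild type 1 and 2. The groups did not overlap, and the log2 difference was -1.13 ± 0.41, or 2.19-fold lower, with adjusted p = 0.17. Other Txnrd1 probe sets were dim and went the other way, at 66.6 and 74.2 in knockout against 35.0 and 35.8 in wild type for the brighter of them. Averaging all Txnrd1 probe sets, the dim ones below the signal filter included, gave a log2 difference of 0.040. The direction for this gene thus depends on whether those dim probe sets are counted. Srxn1, sulfiredoxin, which repairs over-oxidised peroxiredoxins, read 1174 and 625 in knockout, against 1451 and 1487 in wild type, a log2 difference of -0.77 ± 0.40 with adjusted p = 0.31. Its groups did not overlap, but 2 other Srxn1 probe sets were flat, with log2 differences of 0.012 and -0.082. Txn1, the cytosolic thioredoxin, was at 5118 and 7405 in knockout, against 5828 and 6599 in wild type, so the groups overlapped. Mitochondrial Txn2 read 1235 and 790 in knockout, against 896 and 746 in wild type, and its reductase Txnrd2 320 and 122 in knockout, against 282 and 94.0 in wild type. Both overlapped, with log2 differences of 0.27 and 0.25, and both had a dimmer probe set of the opposite sign.

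**Figure D2:**
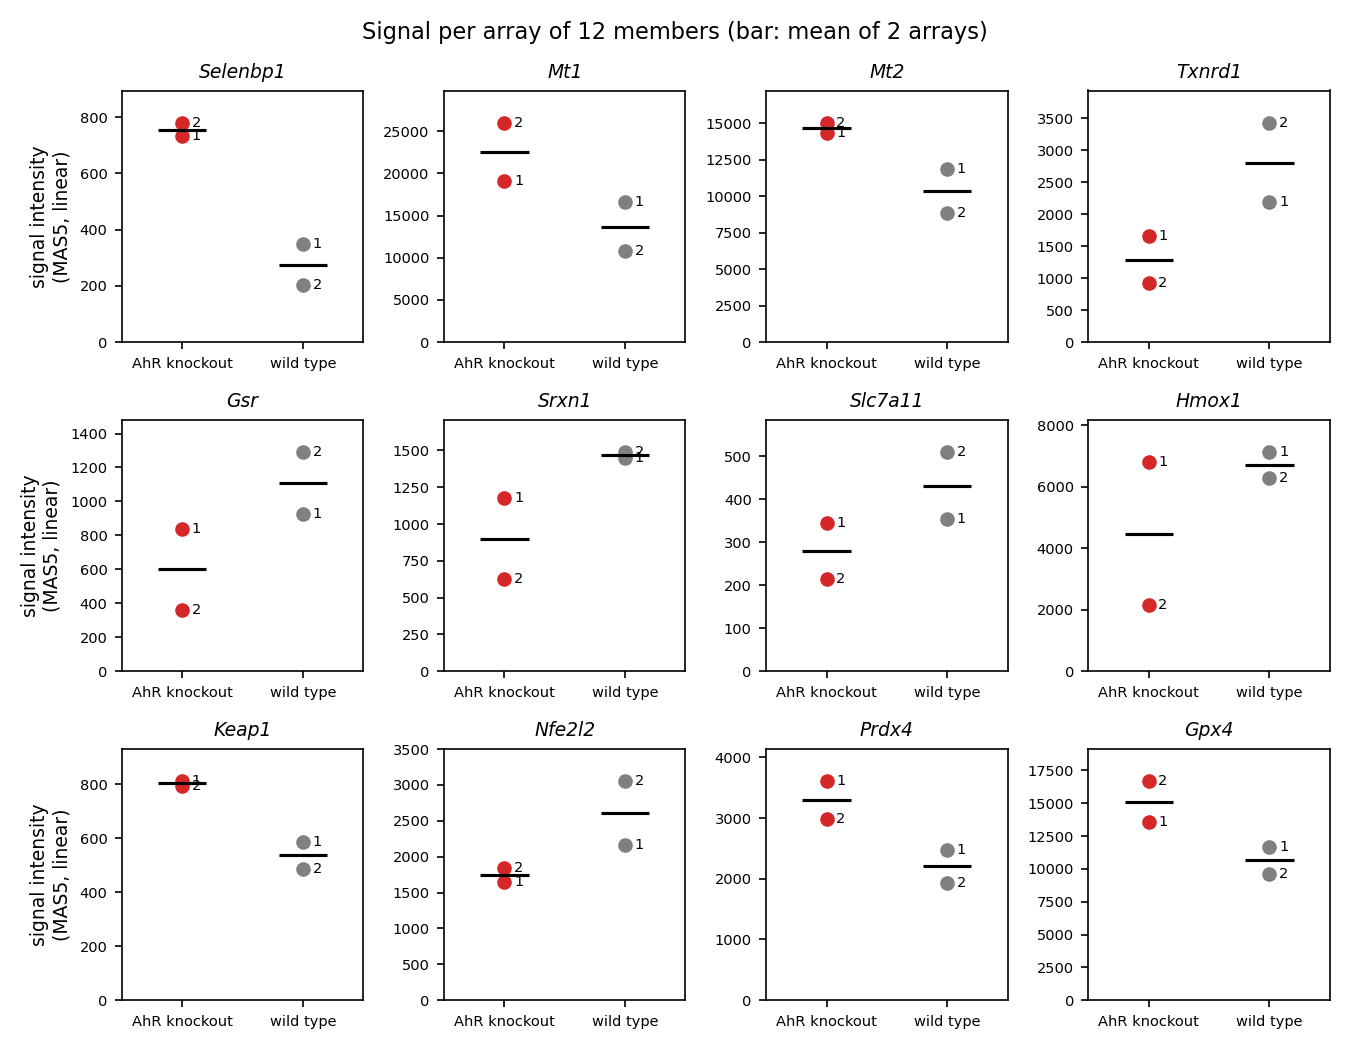
Signal intensity on each array, on linear axes that start at 0, for 12 members in AhR knockout (red, left) and wild type (grey, right), with each array's number beside its point and a bar at the mean of 2 arrays. Selenbp1, Mt1, Mt2, Keap1, Prdx4 and Gpx4 lie higher in both knockout arrays, Txnrd1, Gsr, Srxn1, Slc7a11 and Nfe2l2 lower in both, and Hmox1 is low in AhR knockout 2 alone.

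Of the genes for quinone and heme breakdown, only Hmox1 showed a large difference, and that lay in a single array. Hmox1, the inducible heme oxygenase and a classical stress gene, read 6791 and 2159 in AhR knockout 1 and 2, against 7115 and 6273 in wild type 1 and 2. AhR knockout 1 lay between the wild-type arrays and AhR knockout 2 far below them. The log2 difference was -0.80 ± 0.47 with adjusted p = 0.36. With AhR knockout 1 left out it was -1.62, with adjusted p = 3.25e-05, and with AhR knockout 2 left out it was 0.024. Nqo1, the quinone reductase induced by both AhR and NRF2, read 1390 and 1086 in knockout, against 1252 and 1835 in wild type. The groups overlapped, and Nqo1 differed by log2 -0.30 ± 0.38 (adjusted p = 0.67). The constitutive heme oxygenase Hmox2 and the biliverdin reductase Blvrb differed by log2 0.17 and -0.21, with overlap.

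The 3 peroxiredoxins measured, thiol enzymes that reduce hydrogen peroxide, were higher, and none passed. Prdx4, the form of the endoplasmic reticulum, read 3607 and 2984 in AhR knockout 1 and 2, against 2481 and 1926 in wild type 1 and 2, which differ by log2 0.58 ± 0.34 at adjusted p = 0.35. Its other probe sets differed by 1.13 and 0.83, and in each of the 3 the groups did not overlap. Prdx2, a cytosolic form, read 9208 and 7470 in knockout, against 6873 and 6953 in wild type, a log2 difference of 0.26 without overlap, which quantile normalization took to 0.0091. Mitochondrial Prdx3 read 2060 and 920 in the knockout arrays, against 1258 and 969 in wild type, so the knockout arrays lay on either side of wild type.

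Among superoxide and peroxide enzymes the differences were small. Gpx4, the peroxidase that removes lipid peroxides, read 13552 and 16665 in AhR knockout 1 and 2, against 11700 and 9591 in wild type 1 and 2, which differ by log2 0.50 ± 0.26 at adjusted p = 0.29. A second Gpx4 probe set gave 0.46. Sod1, the cytosolic superoxide dismutase, read 6060 and 6197 in knockout, against 5039 and 4679 in wild type, a log2 difference of 0.33. Sod2, the mitochondrial form, read 2802 and 3006 in knockout, against 2675 and 2027 in wild type, and differed by 0.32. Gpx1, a peroxidase for hydrogen peroxide, read 10028 and 9087 in knockout, against 7923 and 7571 in wild type, and differed by 0.30. For these 4 genes both knockout arrays lay above both wild-type arrays as deposited. Quantile normalization left Sod2 at 0.32 but gave 0.17 for Gpx4, 0.17 for Sod1 and 0.013 for Gpx1. A dimmer Sod1 probe set went the other way, at 168 and 410 in knockout against 343 and 413 in wild type. Another Sod2 probe set read 1329 and 1131 in knockout, against 1289 and 1083 in wild type, a log2 difference of 0.052 with overlap. The remaining Sod2 probe set, below the signal filter, differed by -0.14. Cat, catalase, read 6458 and 9284 in knockout and 6028 and 7466 in wild type, and its second probe set differed by -0.28, against 0.21 for the first. Gpx3, a secreted peroxidase, differed by -0.088, with overlap.

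Both pentose phosphate members and the ferritin heavy chain completed the measured set. Pgd, which makes NADPH from 6-phosphogluconate, read 12037 and 15440 in AhR knockout 1 and 2, against 10460 and 8468 in wild type 1 and 2, which differ by log2 0.53 ± 0.27 at adjusted p = 0.29. Of its other probe sets, 2 gave 0.58 and 0.65, and the one at 4400 and 1540 in knockout against 3106 and 2105 in wild type gave 0.027. Quantile normalization gave 0.21 for the Pgd probe set used. Taldo1, transaldolase, differed by log2 -0.29, with AhR knockout 1 between the wild-type arrays. Fth1, which stores iron in ferritin, read 23692 and 36221 in knockout, against 23507 and 24682 in wild type. Only AhR knockout 2 was above both wild-type arrays, and quantile normalization turned its log2 difference of 0.28 to -0.098.

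**Figure D3:**
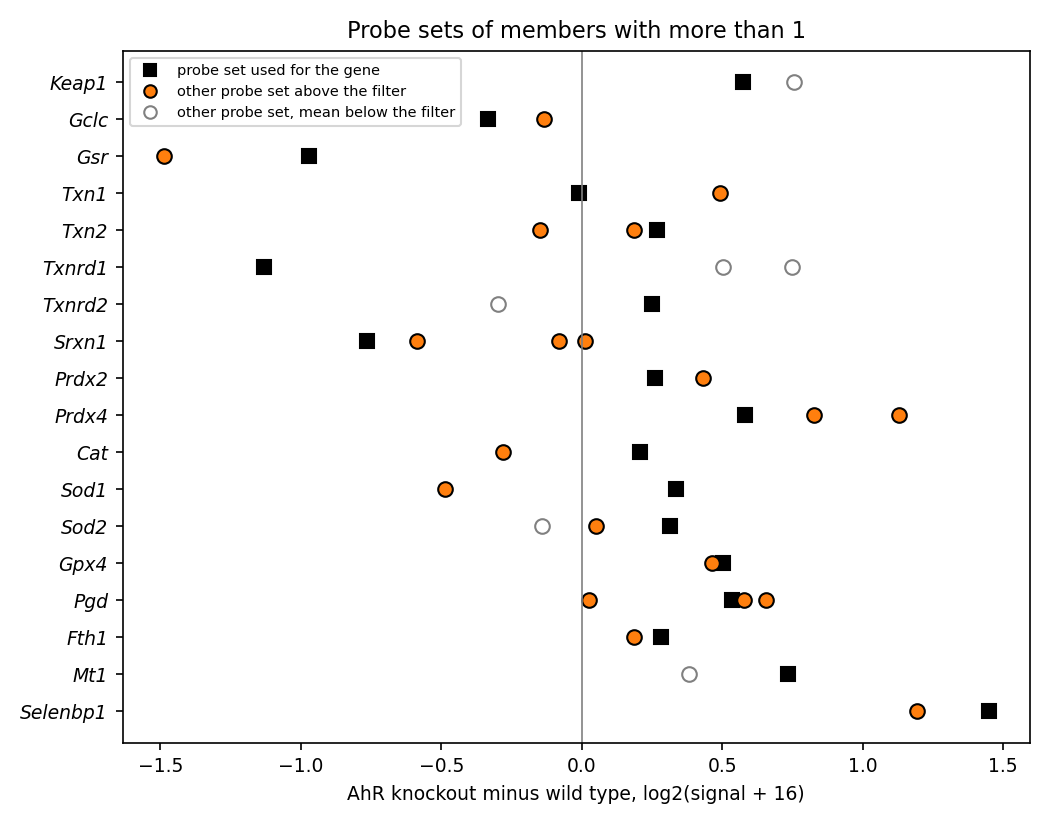
Log2 difference, AhR knockout minus wild type, of every probe set of the 18 tested members with more than 1 probe set: black squares are the probe sets used, orange circles other probe sets above the signal filter and open circles those below it. Selenbp1, Gsr, Prdx4 and Gpx4 have their probe sets on the same side. Those of Txnrd1, Txn1, Cat, Sod1, Srxn1, Sod2, Txn2 and Txnrd2 lie on both sides.

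Probe sets of the same gene were compared for the 18 tested members that had more than 1. Of 26 further probe sets, 20 were above the filter, and 15 of those had the sign of the one used while 5 had the opposite sign. The 6 dimmer ones add 4 of opposite sign, so 9 probe sets of 8 genes went against the chosen one.

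How many members passed moved with the arrays kept. Leaving out AhR knockout 1 gave 9 members past the threshold, 5 higher (Selenbp1, Mt1, Gpx4, Pgd and Fth1) and 4 lower (Hmox1, Gsr, Txnrd1 and Srxn1), but 1360 of the tested genes passed there too, against 71 with all arrays. Leaving out AhR knockout 2 gave 1 member, Selenbp1, and 1031 genes, and leaving out wild type 1 or wild type 2 gave 0 members and 152 or 20 genes. In such fits the lone knockout or wild-type array is taken to vary like the other group. AhR knockout 2, whose 3' to 5' ratios were highest, lay below AhR knockout 1 for 20 of the 31 members, beside 52.8% of all tested genes. The part of RNA quality in the members' values was not tested.

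**Figure D4:**
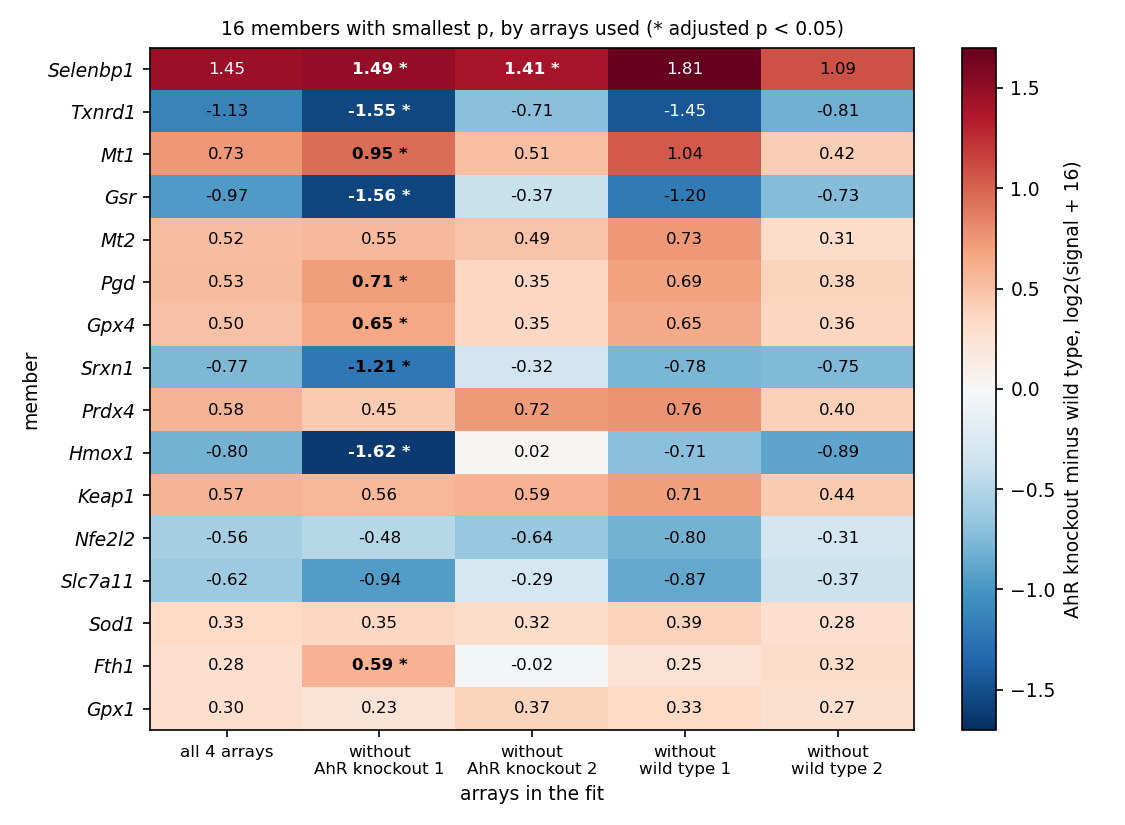
Log2 difference, AhR knockout minus wild type, of the 16 members with the smallest p (rows) with all arrays and with each array left out (columns), where a star marks an adjusted p under 0.05 over all tested genes. Stars fall in the columns without AhR knockout 1 (9) and without AhR knockout 2 (Selenbp1), and Hmox1 is -0.80 with all arrays but 0.024 without AhR knockout 2.

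Other genes of the same systems were also measured. Of 85 listed, 66 were tested, of which 39 lay higher and 27 lower (median 0.15 on the log2 scale), and 0 passed in limma, with 15 at an unadjusted p under 0.05, or 22.7%, beside 20.6% of all tested genes. The smallest p belonged to Ireb2, an iron-sensing protein that protects transferrin receptor mRNA and blocks ferritin translation. It read 100 and 110 in AhR knockout 1 and 2, against 272 and 445 in wild type 1 and 2, which differ by log2 -1.59 ± 0.38 at adjusted p = 0.075. The iron exporter Slc40a1 differed by -0.93. Me1, the malic enzyme that supplies NADPH and a known NRF2 target, read 529 and 533 in knockout, against 1250 and 1451 in wild type, a log2 difference of -1.32 ± 0.36 with adjusted p = 0.098. Tkt, the transketolase of the pentose phosphate pathway, differed by 0.71. Msra, which repairs oxidised methionine, was at 214 and 273 in knockout, against 92.3 and 129 in wild type, a log2 difference of 1.04. Gpx8, a peroxidase of the endoplasmic reticulum, differed by -0.93, Bach1, the repressor that competes with NRF2 for its sites, by -0.96, and Cul3, the ubiquitin ligase scaffold that KEAP1 uses, by -1.44 with overlapping groups. For these 6 genes the adjusted p in limma lay between 0.17 and 0.21.

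The glutathione transferases Gsta4 and Gsta2 did rise. Gsta4 read 2902 and 2561 in AhR knockout 1 and 2, against 339 and 210 in wild type, with adjusted p = 0.021 in limma, and for Gsta2 the adjusted p was 0.041. Gsta3 differed by log2 -0.44 with adjusted p = 0.64, and without the signal filter no gene rose.

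Markers of other cells differed in the same cultures. Of 10 tested endothelial markers 9 were lower and 0 passed, and their summed signal was 14304 and 5872 in AhR knockout 1 and 2, against 20894 and 22935 in wild type 1 and 2. The sum was lowest in AhR knockout 2, the array with the highest 3' to 5' ratios. Of 6 tested macrophage markers 5 were higher and Cd68 was lower, at 808 and 208 in knockout against 819 and 578 in wild type. The 11 measured markers summed to 7248 and 4534 in knockout, against 2628 and 2589 in wild type. Lyz2 and Cd14 held most of each sum. Ptprc, which defines leukocytes, was at 2.06 and 26.1 in knockout against 24.4 and 13.7 in wild type. The 9 keratinocyte markers summed to 1704 and 455 in knockout, against 575 and 506 in wild type. The 10 fibroblast and mural markers summed to 2929 and 3379 in knockout, against 4012 and 3294 in wild type. Of 5 tested, 2 were higher and 3 lower, and Col3a1, a lower one, was alone past the threshold. Pdgfrb and Acta2 held most of each sum, and Pdgfrb read 678 and 2131 in knockout, against 1119 and 635 in wild type. The 7 measured Schwann and glial markers summed to 11956 and 15032 in knockout, against 7506 and 6808 in wild type. Pmp22 held most of each sum, at 8601 and 8911 against 5756 and 4802. Of 3 tested, 2 were higher, and Ngfr was lower, at 345 and 233 against 737 and 480. Fewer cells of a type and less RNA per cell cannot be told apart in such bulk samples, and the part of these cells in the members' values was not tested.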

How the data were processed

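Per the labels' protocols, mRNA of the cultures was amplified before hybridisation, on 1-colour Affymetrix arrays. The authors deposited linear signal intensity, and the submitters' processing notes name MAS5 with no version. Every array has a trimmed mean signal of 499.9, so an overall shift in transcript level would be divided out. Detection calls were not used here.

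Of 22690 probe sets, 20380 had 1 gene symbol, and symbols were updated to RefSeq GRCm38.p6 through gene identifiers. Values were taken as log2(signal + 16), which understates folds of dim genes, and genes in the top 60% by mean signal were tested, the lowest mean being 81.1. Groups, taken from the titles, were compared with limma 3.58.1 (lmFit, eBayes with trend) under R 4.3.3, and p-values were adjusted by Benjamini-Hochberg across every tested gene. Titles number the samples in both groups with no stated pairing, so no block was used. In simulated data with independent normal noise of each gene's limma spread, 200 of the 7436 genes were changed, over 20 runs. There 19.5% of 2-fold and 92.5% of 4-fold changes on the log2(signal + 16) scale were recovered, with 6.75% of calls false. No simulated array differed as a whole, as AhR knockout 2 did in its 3' to 5' ratios, so the rates hold for such noise only. The members, role groups, other pathway genes and markers were chosen with earlier results of these data known. Per-array values were due for members whose groups did not overlap, whose unadjusted p was under 0.05 or whose probe sets disagreed; those of Hmox1, Nqo1, Prdx3, Fth1 and Sod3 were added after their values were seen, and up to 8 other pathway genes were named by smallest p. Figures were drawn with matplotlib 3.10.9.

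The alternatives changed the scaling (quantile, equal array medians), the pseudocount (1, 64), the filter (none, top 40%), the probe sets (averaged, or each tested), eBayes (no trend, robust), the threshold (0.10) and the arrays (each left out), or added the title number as a block.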

Additional observations from a re-analysis of the deposited data

How the results depend on the processing

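Each tested member was recomputed under 16 alternatives. In 7 of them (filters, eBayes forms, block, threshold, and every probe set, where the chosen probe set was followed) the log2 difference cannot move. Of 279 values under the other 9, 254 kept their direction and 25 changed sign, and 14 values over all alternatives came to pass. The number of tested genes past the threshold, 71, was 26 with quantile normalization, 43 with a pseudocount of 1, 1 without the filter, 20 with the top 40% filter, 30 with every probe set, 364 at an adjusted p under 0.10, and between 20 and 1360 with an array left out. The number of members, 0, was 1 at an adjusted p under 0.10 and between 0 and 9 with an array left out. With the title number as a replicate block, 1406 genes and 3 members (Selenbp1, Txnrd1 and Gsr) passed. Arrays of the same number deviated together across genes with r = 0.35, but nothing in the labels pairs them. The members' median was -0.049 with quantile normalization, 0.040 with the mean of probe sets, and between -0.092 and 0.25 with an array left out. With equal array medians 31.9% of calls were rises, against 21.1% as deposited.

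Signs changed with quantile normalization for Cat (-0.049) and Fth1 (-0.098), with equal medians for Txn1 (0.079) and Gpx3 (0.0021), and with the mean of probe sets for Txn1 (0.241), Txnrd1 (0.040), Txnrd2 (-0.024), Cat (-0.037) and Sod1 (-0.077). With an array left out, log2 differences ran from -1.62 to 0.024 for Hmox1, -0.092 to 0.44 for Hmox2, -0.50 to 0.081 for Blvrb, -0.76 to 0.092 for Gclc, -0.78 to 0.098 for Gss, -0.28 to 0.26 for Txn1, -0.049 to 0.59 for Txn2, -0.47 to 0.97 for Txnrd2, -0.26 to 0.89 for Prdx3, -0.055 to 0.47 for Cat, -0.29 to 0.11 for Gpx3, -0.67 to 0.094 for Taldo1 and -0.024 to 0.59 for Fth1. The causes were not tested. For the other 16 members none of those 9 alternatives changed the sign. Even so, another Srxn1 probe set (0.012) and a dim Sod2 probe set (-0.14) had the opposite sign. Precision is limited by the 2 arrays in each group.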

Other observations

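Further genes of these systems, named after their values were seen, had an unadjusted p under 0.05 without passing in limma, with adjusted p between 0.21 and 0.24. Sesn1, a sestrin that restrains growth signalling under stress, read 1179 and 1768 in AhR knockout 1 and 2, against 942 and 540 in wild type 1 and 2. Pgls, the pentose phosphate enzyme just before Pgd, read 1546 and 1369 in knockout, against 976 and 574 in wild type, and Park7, a redox-sensitive chaperone, 9308 and 9598 against 6561 and 5587. Selenow, a small selenoprotein, was at 4064 and 8670 in knockout, against 3422 and 2945 in wild type. Ephx1, a microsomal epoxide hydrolase, read 10775 and 7956 in knockout, against 7310 and 3659 in wild type, and Osgin1, an oxidative stress-induced growth inhibitor, 319 and 568 against 269 and 162. Tfrc, the transferrin receptor that takes up iron, was lower, at 244 and 351 in knockout against 481 and 604 in wild type.

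By list, 6 of 8 tested partners and regulators of NRF2 lay lower (median -0.41 on the log2 scale), but their median was 0.028 for AhR knockout 1 and -0.64 for AhR knockout 2, the array with the highest 3' to 5' ratios. Of 9 tested other NRF2 target enzymes and exporters 6 were higher, with a median of 0.47. Their median was 0.57 for AhR knockout 1 but 0.15 for AhR knockout 2, where 4 of them were lower. For thiol and methionine repair 7 of 10 genes were higher, with a median of 0.45. Those 10 had a median of 0.49 for AhR knockout 1 and 0.60 for AhR knockout 2. Of 7 tested genes of metal transport and copper delivery 6 were higher. Of 12 tested genes of iron uptake, export and regulation 7 were higher and 5 lower.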
